A study of Mus musculus with 6 samples.

Results

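The genes described here are 37 genes of fatty acid synthesis and oxidation, chosen by symbol from what their proteins do. The rule used no measured value, but the list was drawn up with earlier results of these data known. They comprise 11 genes that build, desaturate or elongate fatty acids, 4 that activate them, 17 that carry them into mitochondria or oxidise them, and 5 that encode nuclear receptors or take fatty acids up. All 37 were found among the 55487 genes of the count table, and all 37 were among the 16957 genes with enough reads to be tested. The study sequenced total RNA of mouse ovaries from 3 wildtype and 3 GalTKO samples. GalTKO samples carry the genotype GalT-/-, a loss of galactose-1-phosphate uridylyltransferase, the enzyme of galactose breakdown that is deficient in classic galactosemia. Both groups had the strain label cbl/6-ola/129 and were taken at postnatal day 49. Their treatment label was 2.5% galactose for 4 weeks, so each ovary compared here had been exposed to galactose. The labels give neither the cycle stage nor whether each sample is a separate animal, and p-values therefore measure the spread between these samples, which may be technical.

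Cells make palmitate from acetyl units exported from mitochondria as citrate, and then elongate and desaturate it for membranes, storage and signalling lipids. Oxidation runs the other way: an acyl-CoA crosses into the mitochondrion on carnitine and is shortened by repeated dehydrogenation, hydration, dehydrogenation and thiolysis. In the ovary, steroid-making cells hold lipid droplets of esterified cholesterol and handle large amounts of polyunsaturated fatty acids, and oxidation in the cumulus and oocyte is known for its part in oocyte maturation.

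Levels are given as CPM, the counts of a gene scaled to 1 common library size, and where 3 values are listed for a group they stand in the order of replicates 1, 2 and 3. Galt was measured at 17.8, 16.1 and 17.4 CPM in wildtype and at 0.155, 0.259 and 0 CPM in GalTKO ovaries, so each library carried the Galt level its label calls for (log2 fold change -6.82 ± 0.41 SE, edgeR adjusted p = 0.000153). Libraries held 19232486 to 25729564 counts on genes. The lowest count of any of the 37 genes in any library was 44 (Ehhadh), and the next lowest gene did not go under 218 (Ppara). The coefficient of variation between samples beyond counting error, as edgeR estimated it, was 17.4%. For Ehhadh counting error was not small beside it. Each pair of libraries differed by more than sampling noise (chi-square per degree of freedom at least 12.0).

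One of the 37 genes passed the test. Lpl, which encodes lipoprotein lipase, rose 1.57-fold in GalTKO ovaries, and the other 36 genes did not pass an edgeR adjusted p of 0.05. Of all 16957 tested genes 2.55% passed, 1.13% higher and 1.43% lower, so a single call among 37 genes was close to the background share. Short of that threshold most of the 37 values lay below wildtype. In GalTKO 26 of 37 genes had a negative log2 fold change (25 with upper-quartile scaling), or 70.3%, against 46.6% of all tested genes. Their median log2 fold change was -0.20, against 0.02 for all tested genes, and the values ran from -1.08 to 0.65 with standard errors of 0.09 to 0.29. At an unadjusted p of 0.05, 16 genes (43.2%) stood out, 14 lower (37.8%) and 2 higher, where 17.1% of all tested genes did, 8.9% lower and 8.19% higher. The 3 GalTKO libraries lay wholly apart from the 3 wildtype libraries for 18 genes (48.6%), 16 of them lower (43.2%) and 2 higher (5.41%), where 23.7% of all tested genes did so, 12.0% lower and 11.8% higher.

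Wildtype replicate 3 stood apart from the rest for these genes. It was the highest of the 6 libraries for 26 of the 37 genes (70.3%) and for 10 of the 11 synthesis genes, against 18.6% of all tested genes. It was also the highest for 8 of 12 luteal markers (66.7%) and 8 of 13 endothelial markers (61.5%), and for 3 of 14 macrophage markers (21.4%). The median of the 37 log2 fold changes was -0.11 without wildtype replicate 3 and reached -0.26 without wildtype replicate 1. Of the other libraries, relative to the wildtype mean the median gene stood at -0.10 and -0.06 on the log2 scale in wildtype replicates 1 and 2 and at -0.25, -0.19 and -0.20 in GalTKO replicates 1, 2 and 3, so each GalTKO library stayed below each wildtype library. Ovaries are mixed tissue, and in such bulk RNA fewer cells of a type and less RNA per cell cannot be told apart.

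**Figure D1:**
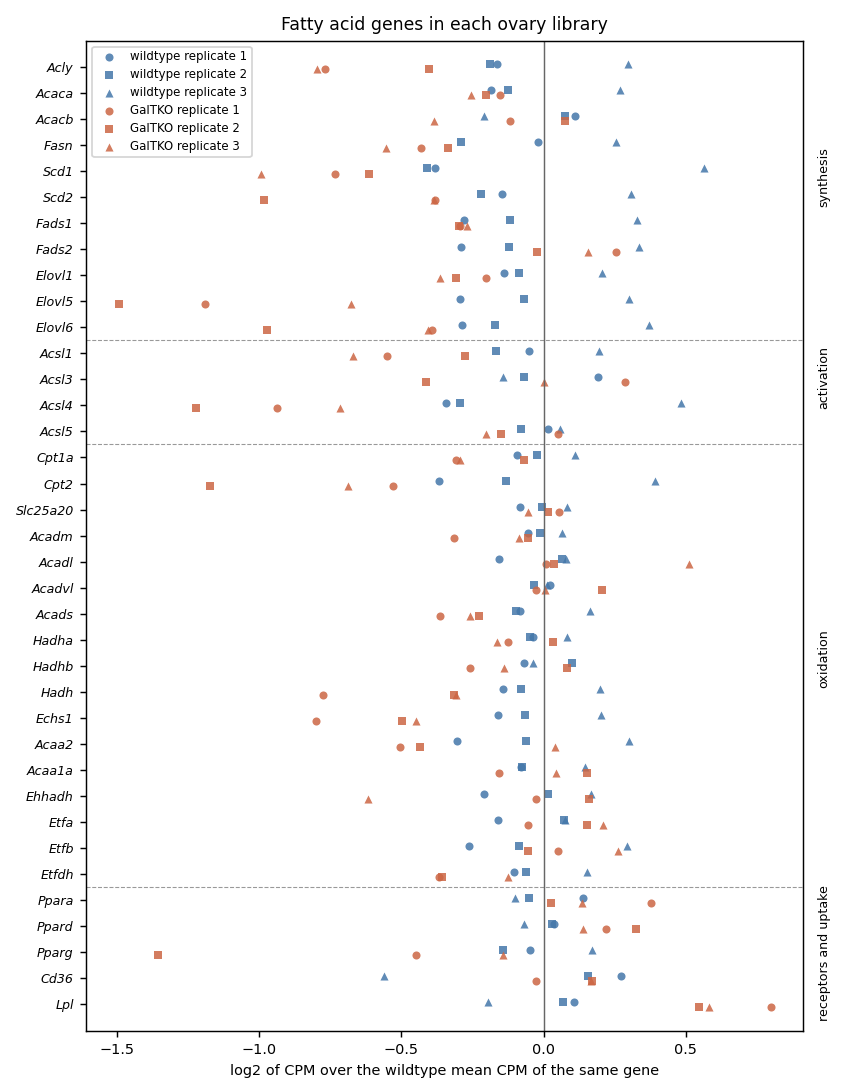
Level of each of the 37 genes in each of the 6 libraries, as the log2 ratio of CPM to that gene's wildtype mean, with genes ordered by step of the pathway. Wildtype replicate 3 holds the highest library for 26 of 37 genes, and the GalTKO libraries lie lower for most synthesis genes and higher for Lpl.

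The number of these genes that passed depended on the test. DESeq2 called 8 (Lpl higher, and Acsl1, Acly, Echs1, Cpt2, Acsl4, Elovl5 and Scd1 lower), where it called 6.19% of all genes. limma voom called 3 (Lpl, Echs1 and Elovl5; 3.29% of all genes), and edgeR without a filter on low counts called 6 (Lpl, Acsl1, Acly, Fasn, Echs1 and Hadh; 2.83%). The call of Lpl alone was returned by median-of-ratios scaling (2.51% of all genes called), upper-quartile scaling (2.36%) and a stricter filter (2.62%), and an adjusted p under 0.1 gave 4 genes (4.49%). None of the 37 was called without wildtype replicate 1 (1.04% of all genes), 2 (0.945%) or 3 (1.15%) or without GalTKO replicate 1 (1.51%). Without GalTKO replicate 2 there were 3 calls (Lpl, Acsl1 and Acly; 4.26%), and without GalTKO replicate 3 there were 2 (Lpl and Elovl5; 1.85%).

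**Figure D2:**
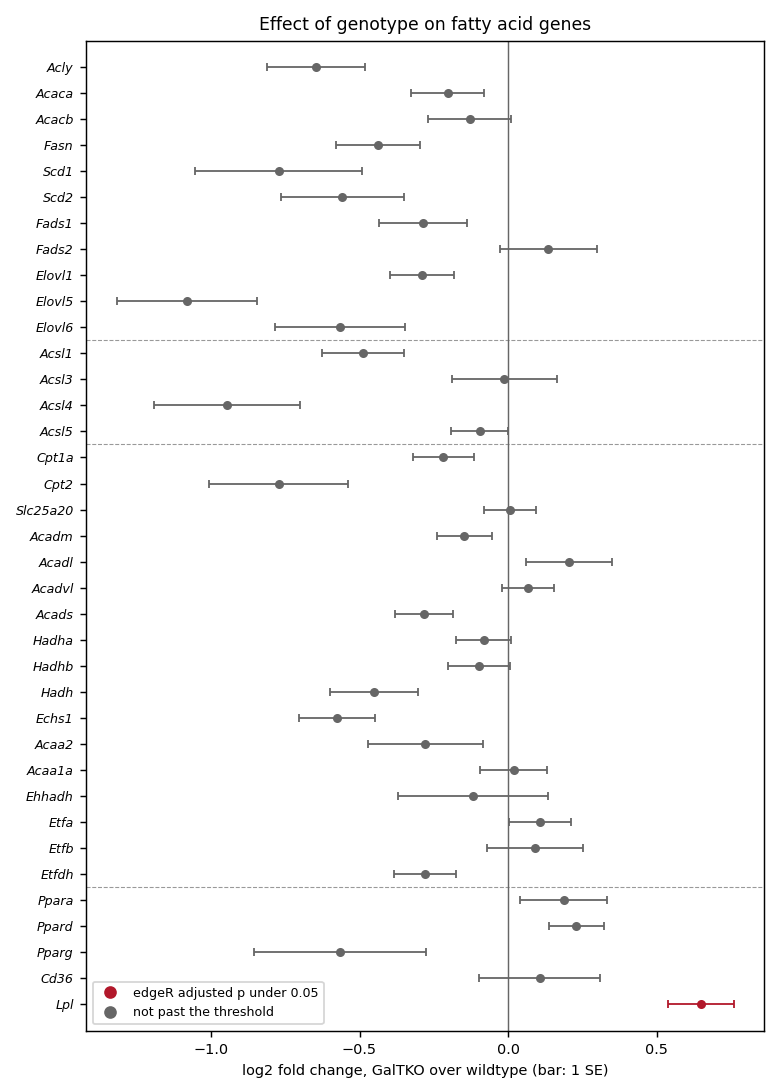
Log2 fold change of each of the 37 genes, GalTKO over wildtype, with bars of 1 SE from edgeR and the gene that passed an adjusted p of 0.05 in red. Values run from -1.08 for Elovl5 to 0.65 for Lpl, and 26 of 37 points lie below 0.

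Synthesis was the arm with the lowest values: 10 of 11 genes had a negative log2 fold change, against 46.6% of all tested genes. At an unadjusted p of 0.05, 7 of 11 (63.6%) were lower, and these 7 showed no overlap between groups. Of all tested genes 8.9% were lower at that p, and 12.0% were lower with no overlap. None of the 11 passed the adjusted threshold. The median log2 fold change of the 11 genes was -0.44, a 0.738-fold level, and -0.29 without wildtype replicate 3. Summed over the 11 genes, wildtype libraries held 6006, 5991 and 8459 CPM and GalTKO libraries 4946, 4002 and 5019 CPM. The groups did not overlap in this sum, although Scd2 makes up a large part of it.

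Acly encodes ATP citrate lyase, which turns exported citrate into cytosolic acetyl-CoA. It lies on chromosome 11 at 100476353 to 100528000, minus strand, on build GRCm38 (ENSMUSG00000020917). Its level was 601, 590.1 and 828 CPM in wildtype ovaries and 395, 509 and 387 CPM in GalTKO ovaries. Each GalTKO library lay below each wildtype library, with GalTKO replicate 2 the nearest to wildtype. The means were 673 ± 134 CPM (SD, n = 3) and 430.3 ± 68.2 CPM (SD, n = 3), and the log2 fold change was -0.65 ± 0.17 SE (edgeR adjusted p = 0.0968, and 0.00711 to 0.251 over the alternatives). The acetyl-CoA carboxylases, which make malonyl-CoA, overlapped between groups. Acaca, the cytosolic form, was at 123 to 169 CPM in wildtype and 117 to 126 CPM in GalTKO, and Acacb, the form at the mitochondrial membrane, was at 38.9 to 48.6 CPM and 34.5 to 47.4 CPM. Their log2 fold changes were -0.20 ± 0.12 SE and -0.13 ± 0.14 SE, and that of Acaca was -0.05 without wildtype replicate 3.

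Fasn, the multifunctional synthase that assembles palmitate, lies on the same chromosome at 120805846 to 120824547, minus strand (ENSMUSG00000025153). Wildtype ovaries held 397, 329 and 480.4 CPM of it, and GalTKO ovaries held 298, 319 and 274 CPM. The groups were apart, but wildtype replicate 2 exceeded GalTKO replicate 2 by a narrow margin. The log2 fold change was -0.44 ± 0.14 SE, with an edgeR adjusted p of 0.163, and -0.29 without wildtype replicate 3.

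The promoters of Acly, Fasn, Elovl5 and Acsl4 are shown because Acly, Elovl5 and Acsl4 were among the 4 lower genes with the smallest p and Fasn is the synthase itself. Each is the 250 bases before the RefSeq start of the gene (GRCm38.p6), written 5′ to 3′ on the gene's strand. Capitals mark the CCAAT box (CCAAT, a site read by NF-Y), the E-box CACGTG (read by basic helix-loop-helix factors) and the GC box (GGGCGG, read by Sp1-family factors), each searched on both strands.
Acly, chr11:100528001-100528250, minus strand: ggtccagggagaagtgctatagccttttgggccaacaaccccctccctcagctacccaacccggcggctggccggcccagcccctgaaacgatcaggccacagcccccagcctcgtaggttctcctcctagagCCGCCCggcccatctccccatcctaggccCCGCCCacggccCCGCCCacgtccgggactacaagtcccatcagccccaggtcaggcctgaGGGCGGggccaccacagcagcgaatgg
Fasn, chr11:120824548-120824797, minus strand: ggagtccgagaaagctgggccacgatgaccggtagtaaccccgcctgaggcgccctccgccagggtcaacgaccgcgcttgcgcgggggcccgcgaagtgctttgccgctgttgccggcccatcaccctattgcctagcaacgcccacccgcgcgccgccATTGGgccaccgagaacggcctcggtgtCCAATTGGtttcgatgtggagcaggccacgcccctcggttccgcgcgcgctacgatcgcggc
Elovl5, chr9:77917115-77917364, plus strand: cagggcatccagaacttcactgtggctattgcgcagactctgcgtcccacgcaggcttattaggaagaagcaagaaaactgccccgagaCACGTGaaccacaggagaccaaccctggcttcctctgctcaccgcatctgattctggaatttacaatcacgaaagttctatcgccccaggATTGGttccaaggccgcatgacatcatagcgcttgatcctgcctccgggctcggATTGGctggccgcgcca
Acsl4, chrX:142390536-142390785, minus strand: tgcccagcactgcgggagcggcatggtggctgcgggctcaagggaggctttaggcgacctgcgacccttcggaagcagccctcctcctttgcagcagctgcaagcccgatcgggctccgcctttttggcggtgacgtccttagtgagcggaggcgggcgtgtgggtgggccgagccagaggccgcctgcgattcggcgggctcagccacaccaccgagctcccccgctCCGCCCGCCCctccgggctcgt
The 4 windows did not share 1 layout of these motifs. Acly held 4 GC boxes, Fasn 3 CCAAT boxes of which the last pair overlap, Elovl5 2 CCAAT boxes and an E-box 161 to 156 bases before the start, and Acsl4 2 overlapping GC boxes. GC content was 68.8% for Acly, 69.2% for Fasn, 55.6% for Elovl5 and 70.8% for Acsl4. The promoter table held 32 of the 37 genes, with 36 promoters among them, and lacked Lpl, Scd1, Scd2, Fads1 and Acaa2. A CCAAT box stood in 18 of these 36 (50%), next to 33.8% of all 32851 mouse promoters in the table. A GC box stood in 23 (63.9%), next to 32.7%, and the E-box in 1, that of Elovl5, next to 6.02%.

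Scd2 was the most abundant RNA of the 4 desaturase genes. Per kilobase of exon Scd2 reached 522 CPM, and it made up 73.8 ± 1.67% (SD, n = 3) of the summed CPM per kilobase of the 4 desaturase genes in wildtype and 67.4 ± 4.54% (SD, n = 3) in GalTKO. Scd2 encodes a stearoyl-CoA desaturase, which puts the first double bond into saturated acyl chains. On chromosome 19 (44293674 to 44306864, plus strand), it was read at 3072, 2920 and 4204 CPM in wildtype ovaries and at 2605, 1721 and 2602 CPM in GalTKO ovaries. All GalTKO values were lower, with GalTKO replicate 2 the lowest, for a log2 fold change of -0.56 ± 0.21 SE (edgeR adjusted p = 0.221).

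Scd1, the stearoyl-CoA desaturase best known from liver and fat, lies 87590 bases from Scd2 and was far less abundant per kilobase, at 34.0 CPM. It stood at 161, 158 and 311 CPM in wildtype ovaries and at 126, 137 and 105 CPM in GalTKO ovaries. The groups were apart, and wildtype replicate 3 held nearly the level of both other wildtype libraries together, for a log2 fold change of -0.77 ± 0.28 SE (edgeR adjusted p = 0.238), and -0.38 without wildtype replicate 3. The Scd genes are similar copies, and no source used here says how shared reads were counted, which leaves their separate levels uncertain.

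The desaturases of polyunsaturated fatty acids gave values of opposite sign, neither past the threshold. Fads1 and Fads2 act in turn on the essential fatty acids on the way to arachidonic acid, and their genes lie 81141 bases apart on chromosome 19. Fads1 was at 327, 365 and 498 CPM in wildtype ovaries and at 324, 323 and 329 CPM in GalTKO ovaries. Fads2 was at 262, 295 and 405 CPM in wildtype and at 383, 316 and 357 CPM in GalTKO, in the same order. Both overlapped between groups, with log2 fold changes of -0.29 ± 0.15 SE for Fads1 and 0.14 ± 0.16 SE for Fads2, the single positive value among the synthesis genes. Without wildtype replicate 3 they were -0.09 and 0.34, and without wildtype replicate 1 Fads2 was at 0.0085.

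Elongation gave lower values in all 3 genes, with no overlap between groups in any, where 12.0% of all tested genes did so. Elovl5 elongates polyunsaturated acyl chains and lies on chromosome 9 at 77917364 to 77984519, plus strand (ENSMUSG00000032349). Wildtype ovaries held 757, 884 and 1143 CPM, and GalTKO ovaries held 407, 330 and 580.5 CPM. The lowest wildtype library was well above the highest GalTKO library. At -1.08 ± 0.23 SE (0.473-fold) this was the lowest log2 fold change of the 37 genes, and it missed the threshold (edgeR adjusted p = 0.0666). Over the alternatives the adjusted p of Elovl5 ran from 8.01e-05 to 0.200, and the log2 fold change stayed between -1.34 and -0.90 when single libraries were left out.

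Elovl6, which extends palmitate to stearate, was at 185, 200.3 and 292 CPM in wildtype ovaries and at 172, 115 and 170.1 CPM in GalTKO ovaries (log2 fold change -0.57 ± 0.22 SE, edgeR adjusted p = 0.252). Elovl1, which makes very long chains, was at 71.3, 74.0 and 90.5 CPM in wildtype and at 68.2, 63.5 and 61.1 CPM in GalTKO (log2 fold change -0.29 ± 0.11 SE, edgeR adjusted p = 0.226). In both genes wildtype replicate 3 stood well above the other libraries, and without it the log2 fold changes were -0.34 for Elovl6 and -0.18 for Elovl1.

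**Figure D3:**
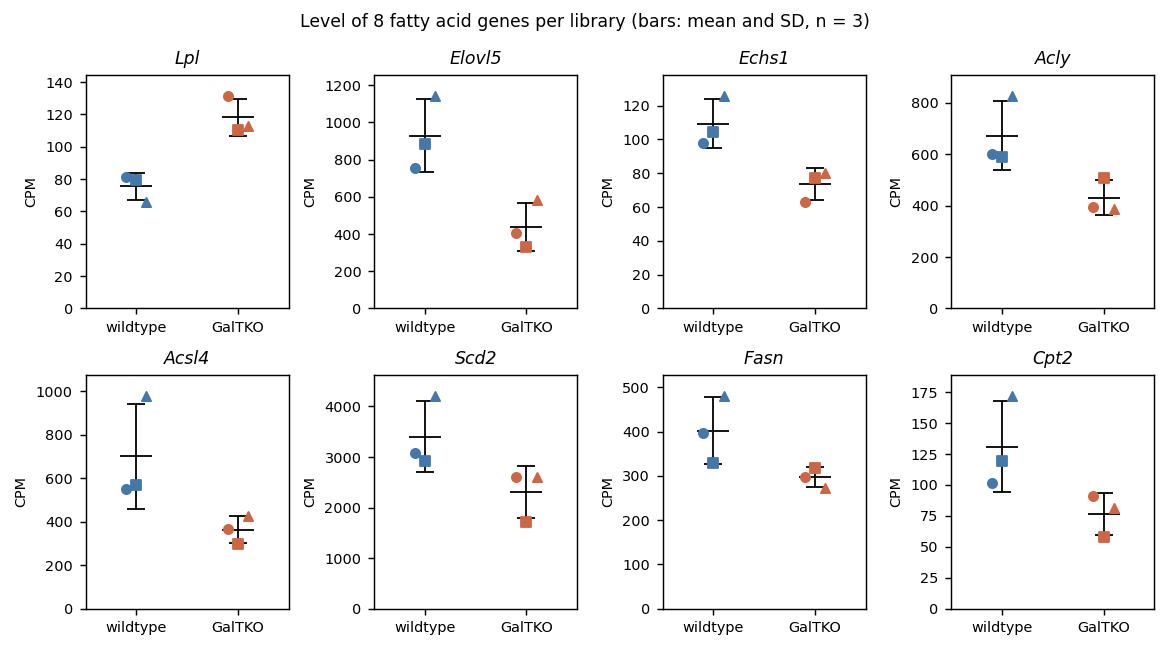
CPM of Lpl, Elovl5, Echs1, Acly, Acsl4, Scd2, Fasn and Cpt2 in each library, with the group mean and SD (n = 3). Lpl lies higher in each GalTKO library and the other 7 genes lie lower in each GalTKO library than in any wildtype library.

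Activation to acyl-CoA, the step that commits a fatty acid to any use, had negative log2 fold changes in all 4 genes (in 3 with upper-quartile scaling, where Acsl3 was at 0.01), and none passed the adjusted threshold. The median was -0.29, and 2 of 4 were lower at an unadjusted p of 0.05, where 8.9% of all tested genes were. Acsl4 prefers arachidonic acid and lies on the X chromosome at 142317993 to 142390535, minus strand (ENSMUSG00000031278). It was at 552, 570.1 and 977 CPM in wildtype ovaries and at 365, 299.7 and 426 CPM in GalTKO ovaries. The groups were apart, with wildtype replicate 3 far above the rest. The log2 fold change of Acsl4 was -0.94 ± 0.25 SE (edgeR adjusted p = 0.113, and 0.00153 to 0.328 over the alternatives), and -0.63 without wildtype replicate 3.

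Acsl4 held 82.5 ± 4.47% (SD, n = 3) of the summed CPM per kilobase of the 4 synthetase genes in wildtype and 73.4 ± 3.39% (SD, n = 3) in GalTKO. Acsl1, a synthetase that feeds oxidation and storage, was at 34.4, 31.8 and 40.8 CPM in wildtype ovaries and at 24.3, 29.5 and 22.4 CPM in GalTKO ovaries. Its groups were apart, with a log2 fold change of -0.49 ± 0.14 SE (edgeR adjusted p = 0.124). Acsl3, the synthetase of lipid droplets, was at 41.7 to 52.5 CPM in wildtype and 34.6 to 56.2 CPM in GalTKO, and Acsl5 at 55.3 to 60.8 CPM and 50.7 to 60.5 CPM. Both overlapped between groups, with log2 fold changes of -0.01 ± 0.18 SE and -0.10 ± 0.10 SE.

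Oxidation showed smaller differences. Of its 17 genes 11 (64.7%) had a negative log2 fold change, against 46.6% of all tested genes. At an unadjusted p of 0.05, 5 were lower (29.4%) and none higher, against 8.9% and 8.19% of all tested genes. None of the 17 passed the adjusted threshold. Their median was -0.12, and -0.20 to -0.07 when single libraries were left out (lowest without GalTKO replicate 2, highest without GalTKO replicate 1). Summed, the 17 genes gave 2020, 2153 and 2445 CPM in wildtype ovaries and 1766, 1985 and 2004 CPM in GalTKO ovaries, so that the groups were apart by a margin small beside their spread.

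In the carnitine shuttle, the gate of the mitochondrion, the 3 genes differed. Cpt1a, which loads acyl groups onto carnitine at the outer membrane and is known as the regulated step, was the most abundant per kilobase (48.7 CPM) and was at 375, 394 and 432 CPM in wildtype ovaries and at 324, 382 and 326 CPM in GalTKO ovaries. The groups overlapped through GalTKO replicate 2 (log2 fold change -0.22 ± 0.10 SE). Cpt2, which returns the acyl group to CoA inside, was at 101, 120 and 172 CPM in wildtype and at 90.8, 58.0 and 81.3 CPM in GalTKO. There the groups were apart, with a log2 fold change of -0.77 ± 0.23 SE and an edgeR adjusted p of 0.161. Slc25a20, the carrier between both enzymes, was at 40.4 to 45.3 CPM in wildtype and 41.2 to 44.4 CPM in GalTKO (0.01 ± 0.09 SE).

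The acyl-CoA dehydrogenases, which start each round and differ in the chain length they accept, gave 1 lower gene at an unadjusted p of 0.05. Acads, for short chains, was at 64.1, 63.5 and 75.9 CPM in wildtype ovaries and at 52.7, 57.9 and 56.7 CPM in GalTKO ovaries, with no overlap (log2 fold change -0.28 ± 0.10 SE, edgeR adjusted p = 0.194). Acadl, for long chains and the most abundant of the 4 per kilobase (68.8 CPM), was at 115, 134 and 135 CPM in wildtype and at 129, 131 and 182 CPM in GalTKO. For Acadl only GalTKO replicate 3 lay above the wildtype range (log2 fold change 0.20 ± 0.14 SE, and 0.02 without that library). Acadm, for medium chains, was at 86.2 to 93.6 CPM in wildtype and 71.9 to 86.1 CPM in GalTKO, and Acadvl, for very long chains, at 62.3 to 64.8 CPM and 62.7 to 73.7 CPM. They had log2 fold changes of -0.15 ± 0.09 SE and 0.07 ± 0.09 SE.

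Of the later steps, Echs1, the enoyl-CoA hydratase of short chains, gave the smallest p among the genes with lower values. It lies on chromosome 7 at 140105710 to 140116476, minus strand (ENSMUSG00000025465), and was at 97.8, 104 and 126 CPM in wildtype ovaries and at 62.7, 77.4 and 80.2 CPM in GalTKO ovaries. Each wildtype library exceeded each GalTKO library. The log2 fold change was -0.57 ± 0.13 SE, 0.671-fold (edgeR adjusted p = 0.0633, and 0.00108 to 0.183 over the alternatives). Echs1 overlaps Paox on the other strand, a gene at 14.9 CPM, and no source used here gives the strand setting of the counting. Elovl1 likewise overlaps Cdc20 (34.3 CPM), Acsl5 Zdhhc6 (64.3 CPM), Acadvl Dvl2 (43.0 CPM) and Acaa1a Myd88 (22.1 CPM). Etfdh does so with 4930579G24Rik (5.22 CPM), and Acsl3 overlaps Utp14b (25.5 CPM) on the same strand.

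Hadh, the dehydrogenase of short hydroxyacyl chains, was at 230.4, 241 and 292 CPM in wildtype ovaries and at 148, 204 and 205 CPM in GalTKO ovaries. The groups were apart, with GalTKO replicate 1 the lowest (log2 fold change -0.45 ± 0.15 SE, edgeR adjusted p = 0.172). Hadha and Hadhb, the subunits of the trifunctional protein that handles long chains, start 85 bases apart on chromosome 5, head to head, and overlapped between groups. Hadha was at 344 to 377 CPM in wildtype and 318 to 364 CPM in GalTKO, and Hadhb was at 119 to 133 CPM and 104 to 132 CPM. Acaa2, the thiolase that ends the round and the most abundant of these genes per kilobase (124 CPM), was at 167, 197 and 254 CPM in wildtype and at 145, 152 and 212 CPM in GalTKO. GalTKO replicate 3 fell within the wildtype range for Acaa2 (log2 fold change -0.28 ± 0.19 SE, -0.47 without that library and -0.10 without wildtype replicate 3).

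Electrons leave the dehydrogenases through the electron transfer flavoprotein, whose subunits are Etfa and Etfb, and its oxidoreductase Etfdh. Etfdh was at 94.3, 97.0 and 112 CPM in wildtype ovaries and at 78.5, 79.0 and 92.8 CPM in GalTKO ovaries, apart by a narrow gap (log2 fold change -0.28 ± 0.10 SE, edgeR adjusted p = 0.226). Etfa, the most abundant of the 3 per kilobase (39.8 CPM), was at 63.0, 74.0 and 74.2 CPM in wildtype and at 67.8, 78.2 and 81.4 CPM in GalTKO. It overlapped between groups, as did Etfb at 16.4 to 24.2 CPM in wildtype and 19.0 to 23.6 CPM in GalTKO, with log2 fold changes of 0.11 ± 0.10 SE and 0.09 ± 0.16 SE.

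The 2 genes of peroxisomal oxidation did not separate the groups. Acaa1a, the peroxisomal thiolase, was at 35.5, 35.6 and 41.5 CPM in wildtype ovaries and at 33.7, 41.7 and 38.7 CPM in GalTKO ovaries (log2 fold change 0.02 ± 0.11 SE). Ehhadh, the bifunctional enzyme, was the least abundant of the 37 genes, at 3.04 to 3.94 CPM in wildtype and 2.29 to 3.93 CPM in GalTKO.

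Lpl is the gene that passed the test. Lipoprotein lipase is secreted, works on the wall of capillaries and frees fatty acids from circulating triglyceride for uptake. Its gene lies on chromosome 8 at 68880491 to 68907448, plus strand (ENSMUSG00000015568). It was at 81.4, 79.3 and 66.0 CPM in wildtype ovaries and at 131, 110.5 and 113 CPM in GalTKO ovaries. Each GalTKO library was higher than each wildtype library, and wildtype replicate 3, the highest library for most synthesis genes, was the lowest for Lpl. Means were 75.6 ± 8.35 CPM (SD, n = 3) in wildtype and 118.3 ± 11.4 CPM (SD, n = 3) in GalTKO, a log2 fold change of 0.65 ± 0.11 SE, and Lpl rose with an edgeR adjusted p of 0.0244. Under the 7 other fits with all libraries the adjusted p was 9.49e-05 to 0.0297. With single libraries left out the call was lost without wildtype replicate 1 (edgeR adjusted p = 0.069), 2 (0.0947) or 3 (0.0764) and without GalTKO replicate 1 (0.0648), and was kept without GalTKO replicate 2 (0.0187) or 3 (0.047). The log2 fold change stayed between 0.56 and 0.70 in these fits.

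Cd36, a membrane transporter of fatty acids that is also made by macrophages and endothelium, was at 55.4, 51.0 and 31.0 CPM in wildtype ovaries and at 45.0, 51.6 and 51.4 CPM in GalTKO ovaries. The groups overlapped, and wildtype replicate 3 was again the lowest library (log2 fold change 0.11 ± 0.20 SE).

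The nuclear receptors that sense fatty acids gave 3 different values. Ppard was at 33.0, 32.8 and 30.6 CPM in wildtype ovaries and at 37.4, 40.2 and 35.3 CPM in GalTKO ovaries, apart and higher, with a log2 fold change of 0.23 ± 0.09 SE that missed the threshold (edgeR adjusted p = 0.257). Pparg, the receptor of fat cell differentiation that granulosa cells also make, was the most abundant of the 3 per kilobase (20.2 CPM), at 69.0, 64.6 and 80.3 CPM in wildtype and at 52.2, 27.9 and 64.5 CPM in GalTKO. GalTKO replicate 3 nearly met the lowest wildtype library, and GalTKO replicate 2 was far below the rest (log2 fold change -0.57 ± 0.29 SE, edgeR adjusted p = 0.387). Without GalTKO replicate 2 the log2 fold change of Pparg was -0.29. Ppara, the receptor that drives oxidation genes in liver, overlapped between groups at 9.66 to 11.4 CPM in wildtype and 10.5 to 13.4 CPM in GalTKO.

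Ratios within a library compare related genes without regard to its depth; the 7 pairs were picked after gene values had been seen and are given as a description. Fads1 over Fads2, each per kilobase, was 0.853, 0.849 and 0.843 in wildtype ovaries and 0.579, 0.699 and 0.630 in GalTKO ovaries. In wildtype the ratio was nearly constant (0.848 ± 0.00524, SD, n = 3) although wildtype replicate 3 was the highest library for both genes, and in GalTKO it was lower in each library (0.636 ± 0.0605, SD, n = 3). Its log2 difference was -0.42, and -0.49 to -0.35 with single libraries left out. An exact two-sided permutation test gave p = 0.1, the smallest it can give for 3 against 3, and 0.233 after Benjamini-Hochberg adjustment over the 7 pairs.

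The groups were also apart for Elovl5 over Elovl6, at 7.48, 8.06 and 7.15 in wildtype ovaries and 4.32, 5.24 and 6.23 in GalTKO ovaries (log2 difference -0.54). Acsl4 over Acsl3 was 8.47, 10.5 and 18.9 in wildtype and 5.24, 6.98 and 7.44 in GalTKO (log2 difference -0.87). Both gave the same smallest exact permutation p of 0.1. For pairs whose products work as partners the group means were close: Hadha over Hadhb was 2.17 ± 0.200 in wildtype and 2.20 ± 0.151 in GalTKO, and Etfa over Etfb was 2.30 ± 0.311 and 2.30 ± 0.274 (SD, n = 3). These differences, of 0.02 and 0.00 on the log2 scale, were within the spread of either group, as they were for Scd1 over Scd2 (0.0672 ± 0.0133 and 0.0628 ± 0.0232) and for Acaca over Acacb (1.80 ± 0.559 and 1.69 ± 0.235).

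**Figure D4:**
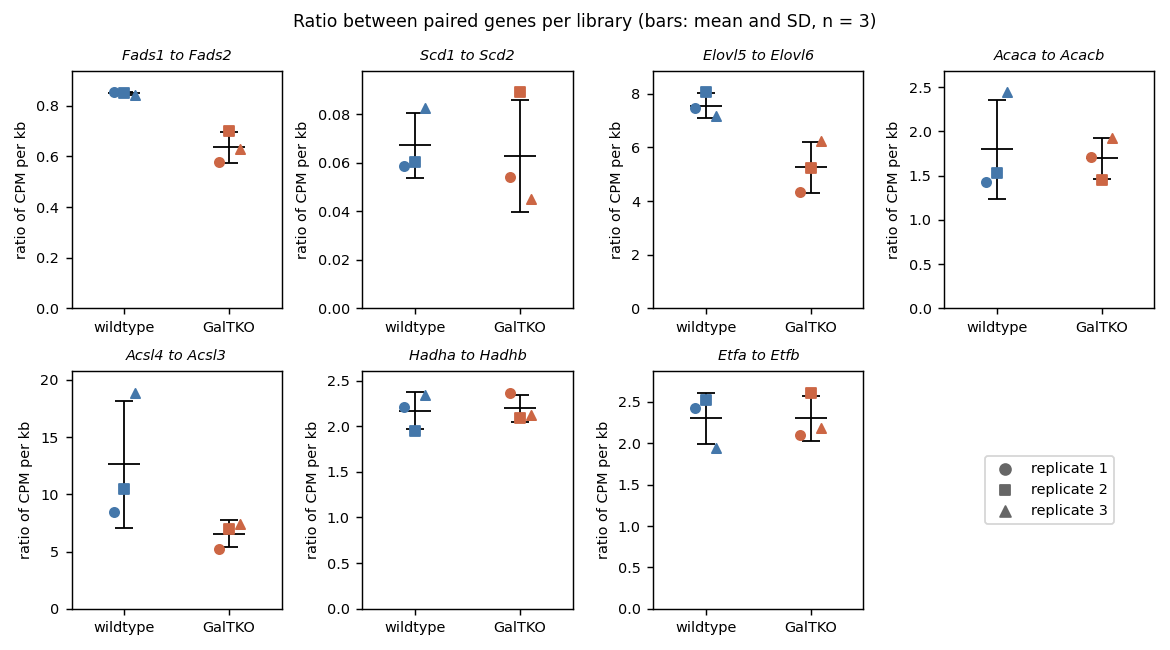
Ratio of CPM per kilobase between 7 pairs of related genes in each library. GalTKO libraries lie below all wildtype libraries for Fads1 over Fads2, Elovl5 over Elovl6 and Acsl4 over Acsl3, and overlap with them for the other 4 pairs.

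Other genes of these pathways, from lists set by function, gave 6 calls, each of which was lost when at least 1 of the libraries was left out. Of 23 tested genes of fatty acid synthesis beyond the 11 above, 2 fell and none rose (8.70% called, against 2.55% of all tested genes). Their median log2 fold change was -0.23. Hacd3, a dehydratase of chain elongation, was at 257, 248 and 319 CPM in wildtype ovaries and 174, 179 and 187 CPM in GalTKO ovaries (log2 fold change -0.61 ± 0.11 SE, edgeR adjusted p = 0.0297). Acss2, which makes cytosolic acetyl-CoA from acetate, was at 29.9, 35.4 and 54.7 CPM in wildtype and at 11.7, 18.2 and 17.0 CPM in GalTKO (log2 fold change -1.35 ± 0.26 SE, edgeR adjusted p = 0.0479). Each kept its call in 1 of the 6 fits without a library, Hacd3 without GalTKO replicate 2 and Acss2 without wildtype replicate 1. With all libraries Hacd3 was called in 7 of 7 other fits and Acss2 in 4 of 7, being lost with upper-quartile scaling (adjusted p = 0.0512), limma voom (0.051) and no filter (0.137).

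Among 17 regulators of synthesis 1 fell (5.88%, against 2.55% of all tested genes called). Insig1, the brake on SREBP processing and itself a target of SREBP, was at 212, 169.9 and 294 CPM in wildtype ovaries and at 93.5, 81.3 and 116 CPM in GalTKO ovaries. All GalTKO libraries were lower, with a log2 fold change of -1.22 ± 0.22 SE and an edgeR adjusted p of 0.0408, and the call held in 2 of the 6 fits without a library and in 6 of 7 other fits (not with no filter, adjusted p = 0.117). Srebf1 and Srebf2, the SREBP genes, were named after their values were seen and did not pass (-0.24 ± 0.10 SE and -0.31 ± 0.13 SE, edgeR adjusted p = 0.287 and 0.254). The 17 regulators had a median log2 fold change of -0.02.

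Of 28 tested oxidation genes beyond the 17 above, 1 rose and none fell, and their median was -0.00. This share of 3.57% was close to the 2.55% called among all tested genes. Slc25a42, the mitochondrial carrier of CoA, was at 23.9, 21.0 and 18.5 CPM in wildtype ovaries and at 52.5, 44.4 and 35.0 CPM in GalTKO ovaries (log2 fold change 1.06 ± 0.16 SE, edgeR adjusted p = 0.0155, called in 4 of 6 fits without a library). Of 13 tested PPAR targets and coactivators 1 rose: Ucp2, a carrier of the inner mitochondrial membrane, at 363, 353 and 325 CPM in wildtype and 460.2, 522 and 523 CPM in GalTKO (log2 fold change 0.53 ± 0.09 SE, edgeR adjusted p = 0.0282, called in 2 of 6). Of 15 tested genes of uptake and binding 1 fell: Acbd5, a peroxisomal acyl-CoA binding protein, at 87.0, 88.2 and 91.5 CPM in wildtype and 63.7, 69.6 and 70.8 CPM in GalTKO (log2 fold change -0.39 ± 0.08 SE, edgeR adjusted p = 0.0458, called in 1 of 6, and not with upper-quartile scaling, 0.0599). In all 3 genes the groups were apart. The single calls were 7.69% of the 13 PPAR genes and 6.67% of the 15 uptake and binding genes, and each share rests on 1 gene. Gpihbp1, which anchors lipoprotein lipase to capillaries and was named after its value was seen, did not pass (-0.67 ± 0.24 SE, edgeR adjusted p = 0.212).

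Fat around the ovary also makes Lpl. Of 14 adipocyte markers 5 had enough reads to test, and 1, Plin1, rose. Plin1 coats lipid droplets of fat cells and steroid-making cells and was at 22.0, 22.5 and 19.8 CPM in wildtype ovaries and at 53.1, 41.6 and 38.9 CPM in GalTKO ovaries. It was higher in each GalTKO library, with a log2 fold change of 1.06 ± 0.13 SE and an edgeR adjusted p of 0.00617, and was called in all 6 fits without a library. Of the other listed markers, Lep and Ucp1 had 0 counts in all 6 libraries, and Adipoq had 1 count, in a wildtype library. Fabp4 was at 1.04 to 1.31 CPM in wildtype and 0.813 to 1.42 CPM in GalTKO. The summed level of the 14 markers overlapped between groups, at 130 to 168 CPM in wildtype and 141 to 193 CPM in GalTKO. Plin1, higher in GalTKO, and Lipe, lower in GalTKO, both count in this sum. Whether fat tissue had a part in the level of Lpl was not tested.

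The luteal, macrophage and endothelial lists had lower sums in GalTKO, and those of the other ovarian cells overlapped. Of all tested genes 2.55% were called. The called share was 8.33% of the luteal, 50% of the macrophage, 23.1% of the endothelial and 25% of the granulosa markers. Luteal markers, steroid-making cells of the corpus luteum, summed to 18188 to 24474 CPM in wildtype and 10192 to 17398 CPM in GalTKO; 1 of 12 fell (Star, log2 fold change -1.13 ± 0.19 SE, edgeR adjusted p = 0.0263, called in 2 of 6 fits without a library), and their median was -0.65. Macrophage markers summed to 542 to 659 CPM in wildtype and 348 to 386 CPM in GalTKO; 7 of 14 fell, and their median was -0.68. Of these Mpeg1 and Ctss were called in all 6 fits without a library, Laptm5 in 4 and Csf1r in 2. Endothelial markers summed to 703 to 861 CPM and 560 to 626 CPM; 3 of 13 fell, and their median was -0.38. Kdr was called in all 6 fits without a library, Flt1 in 2 and Pecam1 in 1. Each of these sums was lower in all GalTKO libraries, like the sums of the synthesis, activation and oxidation genes. Their part in the lower values of the 37 genes was not tested, and neither was it for Lpl, which rose where the macrophage and endothelial sums were lower. Sums of granulosa, theca, oocyte and stromal markers overlapped between groups, with 2 higher calls (Amh and Slc18a2) and 1 lower call (Nr5a2) among 12 granulosa markers and none among 8 theca, 12 oocyte and 10 stromal markers. Amh and Slc18a2 were called in 3 of 6 fits without a library and Nr5a2 in 1.

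**Figure D5:**
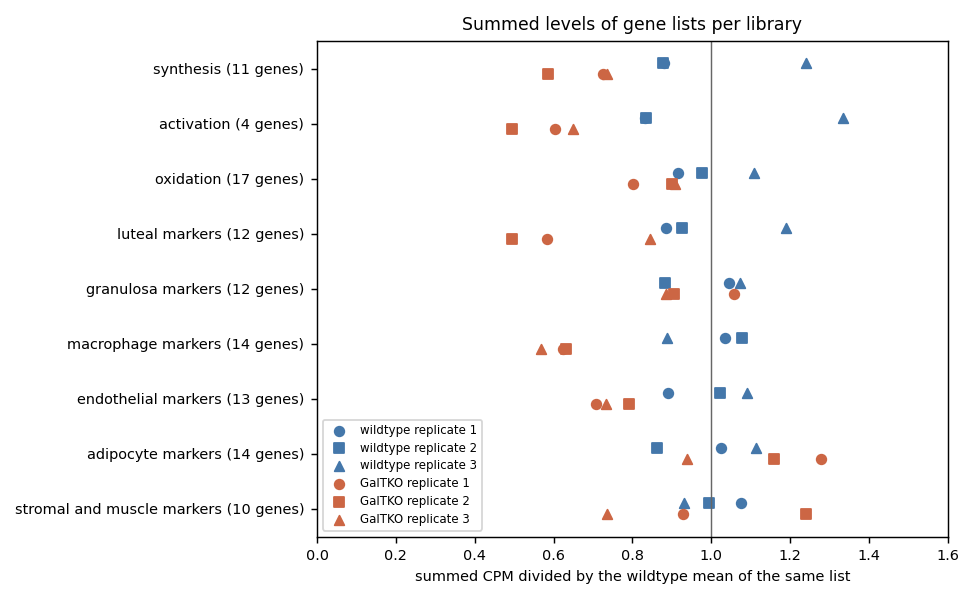
Summed CPM of the synthesis, activation and oxidation genes and of 6 cell type marker lists in each library, relative to the wildtype mean of each sum. The sums of the 3 groups of fatty acid genes and of the luteal, macrophage and endothelial markers lie lower in all GalTKO libraries, and those of the granulosa, adipocyte and stromal markers overlap.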

How the data were processed

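Flash-frozen ovaries of 3 wildtype and 3 GalTKO samples gave stranded total RNA libraries depleted of ribosomal RNA, per the labels' protocols. The authors deposited raw read counts per gene for 55487 Ensembl genes, and 55227 IDs matched GENCODE M21. The submitters' processing notes name cutadapt 1.16, STAR 2.7.6a, featureCounts 1.6.3, DESeq2 1.30.1 and GRCm38. No source used here gives the annotation release or the strand and multimapping settings. Totals were 19232486 to 25729564 counts.

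Genes were filtered with filterByExpr (minimum count 10, total 15), scaled by TMM and fitted on genotype with edgeR 4.0.16 (robust quasi-likelihood, R 4.3.3). P-values were Benjamini-Hochberg adjusted over 16957 genes and called below 0.05. SE is the size of the log2 fold change over the square root of F. CPM uses TMM-scaled totals.

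The 37 genes and the 13 lists were chosen with earlier results of these data known. Values per library are given for genes with an unadjusted p under 0.05 and the most abundant gene per kilobase of each of 12 roles; Fads1 and Fads2 are shown so because of their ratio, after their values were seen, and other genes are given by range. Of each list, the genes called are named, at most 4 by smallest p. Alternatives tried were scaling by median of ratios or upper quartile, DESeq2 1.42.0, limma 3.58.1 voom with quality weights, no or a stricter filter (1 CPM in 3 libraries), an adjusted p under 0.1, a replicate block and each library left out. Ratios were tested by exact permutation (scipy 1.17.1). Promoters came from a RefSeq table (GRCm38.p6).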

Additional observations from a re-analysis of the deposited data

How the results depend on the processing

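With 3 libraries a group, the standard errors of the 37 log2 fold changes were 0.09 to 0.29, and a miss of the threshold does not show that a gene was unchanged. Of the 37 genes edgeR called 1. Other settings called 8 (DESeq2), 6 (no filter on low counts), 3 (limma voom) and 4 (adjusted p under 0.1), and 0 to 3 when single libraries were left out. Median-of-ratios scaling, upper-quartile scaling and the stricter filter called 1. The median log2 fold change of the 37 genes stayed negative under each of these, from -0.26 to -0.11 with libraries left out and from -0.22 to -0.18 otherwise.

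Whether the replicate numbers pair the samples is not clear. Deviations of same-numbered libraries correlated at 0.093, -0.040 and 0.078, and those of differently numbered libraries at -0.118 to 0.029. With the replicate block edgeR called 4 of the 37 genes (Lpl, Echs1, Acsl4 and Elovl5) and 321 of 16957 genes in place of 433. Of the other genes named, Ucp2, Acbd5, Csf1r, Flt1 and Nr5a2 lost their calls with the block (edgeR adjusted p = 0.077, 0.0776, 0.0595, 0.0679 and 0.0986).

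Signs changed only in genes far from any call. Acsl3 turned to 0.011 with upper-quartile scaling and 0.038 with limma voom, Slc25a20 to -0.0051 with no filter and Cd36 to -0.0016 with limma voom. With libraries left out, ranges spanned 0 for Acsl3 (-0.19 to 0.15), Slc25a20 (-0.034 to 0.048), Acadvl (-0.0095 to 0.11), Acaa1a (-0.055 to 0.098), Ehhadh (-0.28 to 0.068), Etfb (-0.026 to 0.26) and Cd36 (-0.11 to 0.26). The cause was not tested.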

Other observations

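Lipe, Decr1 and Scap touch the same steps and were looked up after the other results had been seen. Lipe is also on the adipocyte list. Lipe, the hormone-sensitive lipase that frees fatty acids and cholesterol from lipid droplets, was at 49.3, 50.9 and 58.3 CPM in wildtype replicates 1 to 3 and at 29.1, 40.6 and 33.4 CPM in GalTKO replicates 1 to 3. Its groups were apart and its log2 fold change was -0.62 ± 0.13 SE, which missed the threshold (edgeR adjusted p = 0.056), while Plin1, which coats the same droplets, was higher in each GalTKO library. Decr1, the reductase that lets polyunsaturated chains be oxidised, gave -0.51 ± 0.12 SE (edgeR adjusted p = 0.0699). Scap, the escort of the SREBP proteins, gave -0.60 ± 0.19 SE (edgeR adjusted p = 0.161).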
